A study of Mus musculus with 28 samples.

Results

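The set described here holds the genes for enzymes that add acetyl groups to histones (writers) and enzymes that remove them (erasers). It also holds proteins that recognise histone marks (readers) and subunits of the acetyltransferase complexes built on Kat8. The p160 nuclear receptor coactivators Ncoa1, Ncoa2 and Ncoa3 were counted with the writers. The members were taken by symbol from tables of estimated fragments per gene in mouse satellite cells, where 35 of the 22552 listed genes belonged to the set: 11 erasers, 9 writers, 8 complex subunits and 7 readers. Kat8 stands in the tables under its older symbol Myst1. All 35 were listed in all 4 tables, and none was lost to the authors' quality status.

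Satellite cells are the stem cells of skeletal muscle. They were isolated by fluorescence-activated sorting (FACS) from SIRT1mKO (KO) mice, in which Cre expressed from the Pax7 locus removes the floxed exon 4 of Sirt1, and from wild-type (WT) mice on a C57Bl/6 background, per the labels. KO_FI and WT_FI are freshly isolated quiescent cells. KO_Cul and WT_Cul are proliferating cells grown in Ham's F-10, to which 12.5 ng/ml bFGF and 20% fetal bovine serum had been added. KO_Diff and WT_Diff are such cultures after 24 hours in 2% horse serum. The polyA RNA libraries numbered 3 KO_FI, 2 KO_Cul and 2 KO_Diff, against 5 WT_FI, 4 WT_Cul and 2 WT_Diff, and the labels do not say whether replicates came from separate animals or cultures, so p-values measure the spread between these libraries. Cre acts in cells that have expressed Pax7 and the floxed gene keeps its other exons, so gene totals cannot check the deletion. Libraries are named by group and by their index (from 0) within a table, since the tables do not carry the replicate numbers of the labels.

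Acetylation of histone tails loosens chromatin and creates docking sites for bromodomains. Histone deacetylases (HDACs) of classes I, II and IV use zinc, whereas sirtuins such as SIRT1 use NAD, and SIRT1 and Kat8 act in opposite directions on lysine 16 of histone H4. In muscle, class IIa HDACs bind MEF2 transcription factors and hold back differentiation, and the acetyltransferases p300 (Ep300) and PCAF (Kat2b) act as coactivators of MyoD.

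Totals of estimated fragments were 28010691 to 65324684 in the table of KO_FI and WT_FI (FI table), 75674366 to 82590642 in that of KO_Cul and WT_Cul (Cul table), 71858446 to 82825550 in that of KO_Diff and WT_Diff (Diff table) and 24254119 to 31643216 in a table of 2 WT_Cul and 2 WT_FI libraries (table of WT states). CPM values are a gene's fragments scaled to a common library total (trimmed-mean scaling, TMM) and are comparable within a table, and a level of 1 gene against another is given only as the authors' FPKM, which corrects for length. A gene was called when its adjusted p (edgeR's quasi-likelihood F test, Benjamini-Hochberg over all genes tested) was under 0.05. Sirt1, the targeted gene, stood at 63.4, 37.6 and 44.3 CPM in KO_FI libraries against 81.4, 50.6 and 47.4 CPM in WT_FI libraries, and at 41.4 and 28.8 CPM in KO_Diff libraries against 52.1 and 28.2 CPM in WT_Diff libraries. It stood at 33.8 and 46.9 CPM in KO_Cul libraries against 62.2 and 66.8 CPM in WT_Cul libraries, the widest gap of the 3 states, with a log2 fold change of -0.68 (SE 0.24, unadjusted p = 0.0368, adjusted p = 1.00 from edgeR).

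The WT_Cul against WT_FI comparison shows how the set stands in proliferating against quiescent cells. Of the 35 members, 6 were called, 3 higher and 3 lower in WT_Cul, while 28.6% of the 14680 genes tested were called in that comparison (12.6% higher and 16% lower) and the share of members called was below that of all genes. An unadjusted p under 0.05 was reached by 9 members, beside 44.3% of all genes. The members' median log2 fold change was -0.03, beside 0.06 over all genes tested. The members that rose were the class I deacetylase Hdac2, the acetyltransferase Kat2a (GCN5) and the scaffold Wdr5. Those that fell were the class IV deacetylase Hdac11, the acetyltransferase Kat2b (PCAF) and the class IIa deacetylase Hdac5. The groups did not overlap for 22 of the 35 members, and for 70.9% of all genes.

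**Figure D1:**
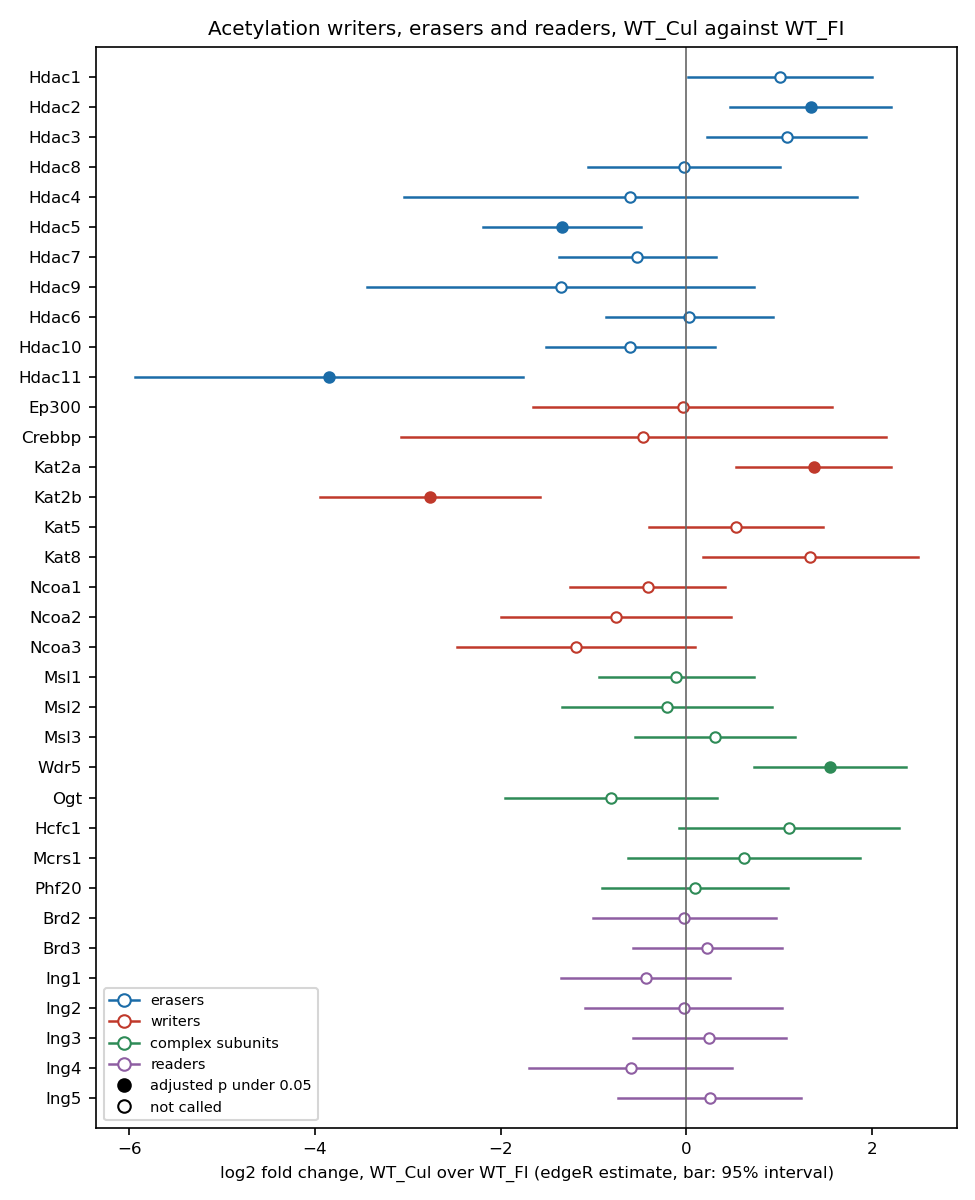
Log2 fold change of WT_Cul over WT_FI (x axis) for each of the 35 members (y axis, coloured by role), with 95% intervals from the edgeR fit of 2 against 2 libraries. Filled points are the 6 called members, from Hdac11 at -3.85 to Wdr5 at 1.55, and the other 29 are open.

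Kat2a and Kat2b are close paralogs that replace each other as the acetyltransferase of the SAGA and ATAC complexes, and they were called in opposite directions. Kat2b had 8.56 and 15.5 CPM in WT_Cul libraries, against 68.1 and 94.9 CPM in WT_FI libraries. It was lower in each WT_Cul library, by a log2 fold change of -2.76 (SE 0.46, adjusted p = 0.0175, edgeR). Kat2a had 123 and 103 CPM in WT_Cul libraries, against 46.1 and 40.8 CPM in WT_FI libraries. It was higher in each WT_Cul library, with a log2 fold change of 1.37 (SE 0.33, adjusted p = 0.0349, edgeR). On the FPKM scale Kat2a over Kat2b came to a ratio of 19.7 and 9.17 in WT_Cul libraries, against 0.931 and 0.598 in WT_FI libraries. RefSeq lists a pseudogene of Kat2b, and fragments shared with it make its level uncertain.

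The same ratio could be read in the other 14 libraries, which belong to other tables and had no part in that fit. It was 1.51, 1.37 and 1.47 in KO_FI libraries and 1.46, 2.05 and 1.16 in WT_FI libraries of the FI table. It was 61.0 and 20.0 in KO_Cul libraries and 38.6 and 19.4 in WT_Cul libraries. It was 11.6 and 6.31 in KO_Diff libraries and 10.2 and 17.2 in WT_Diff libraries. Every cultured library of either genotype lay above every freshly isolated one in this ratio, and Kat2b exceeded Kat2a only in the 2 WT_FI libraries of the table of WT states.

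**Figure D2:**
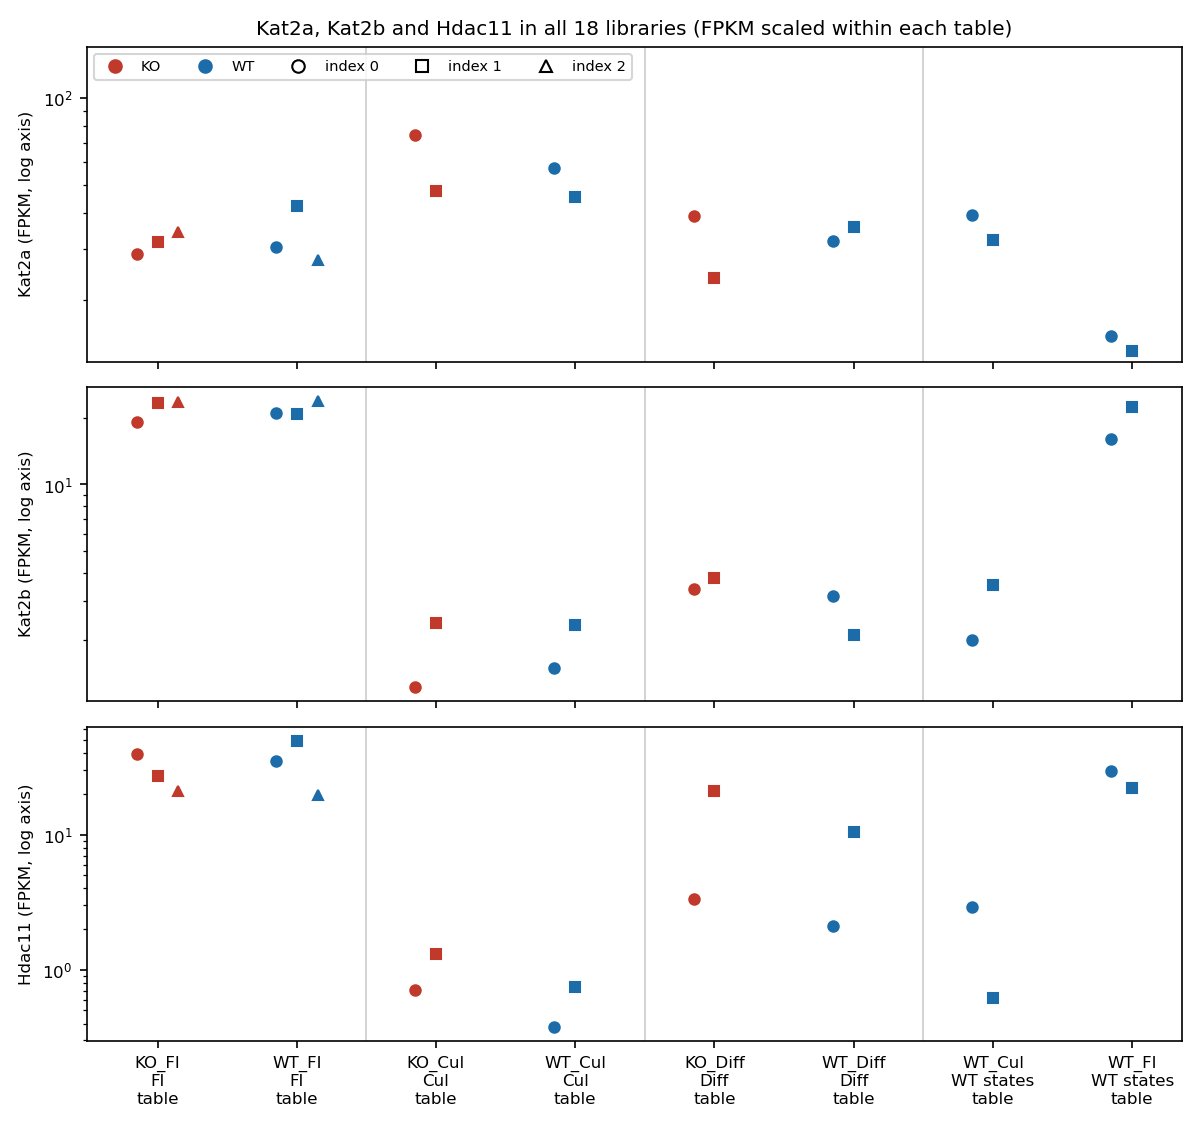
FPKM (log axes) of Kat2a, Kat2b and Hdac11 in all 18 libraries, 1 marker a library with its shape giving the index, KO in red left of WT in blue within each table. Kat2b lies between 1.22 and 3.79 FPKM in cultured libraries and between 16.1 and 23.7 FPKM in freshly isolated ones, and Hdac11 is higher in index 1 than in index 0 of the Diff table in either genotype. FPKM was scaled within each table.

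Hdac11, the only class IV member, had the largest estimate among the members. It had 7.36 and 1.58 CPM in WT_Cul libraries, against 73.6 and 54.8 CPM in WT_FI libraries. The groups did not overlap, and the log2 fold change was -3.85 (SE 0.82, adjusted p = 0.0275, edgeR). In the other tables Hdac11 stood at 1.64 and 3.14 CPM in KO_Cul and 0.897 and 1.75 CPM in WT_Cul libraries, and at 99.5, 68.0 and 52.6 CPM in KO_FI and 86.9, 125 and 49.5 CPM in WT_FI libraries. Levels were thus lower in proliferating than in freshly isolated libraries of either genotype, although there state and table coincide. In the Diff table Hdac11 stood at 7.95 and 50.4 CPM in KO_Diff and 4.99 and 25.3 CPM in WT_Diff libraries, so 1 KO_Diff library lay within the range of the freshly isolated ones.

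The promoters of Kat2a, Kat2b and Hdac11 are shown because these members give the widest contrast of the states within a paralog pair and within the set. Each is the 250 bases before the transcription start in RefSeq (GRCm38.p6, gene strand, 5' to 3'), at chr11:100712468-100712717 on the minus strand for Kat2a, chr17:53566721-53566970 on the plus strand for Kat2b (1 of 2 entries, the nearest to the annotated gene start) and chr6:91156565-91156814 on the plus strand for Hdac11. Capitals mark GC boxes (GGGCGG), E-boxes (CANNTG), E2F sites (TTTCCCGC, TTTCGCGC or TTTGGCGC) and CCAAT boxes (CCAAT), searched on both strands.
Kat2a: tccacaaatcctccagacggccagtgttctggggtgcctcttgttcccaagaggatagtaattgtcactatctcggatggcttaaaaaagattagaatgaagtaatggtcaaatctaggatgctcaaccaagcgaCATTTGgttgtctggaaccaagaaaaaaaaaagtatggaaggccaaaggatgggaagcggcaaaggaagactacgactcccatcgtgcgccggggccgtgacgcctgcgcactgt
Kat2b: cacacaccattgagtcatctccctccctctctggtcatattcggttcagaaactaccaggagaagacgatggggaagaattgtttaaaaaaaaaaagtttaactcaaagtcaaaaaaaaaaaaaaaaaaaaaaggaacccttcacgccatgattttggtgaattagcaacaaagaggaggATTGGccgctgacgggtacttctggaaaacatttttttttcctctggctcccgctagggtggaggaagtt
Hdac11: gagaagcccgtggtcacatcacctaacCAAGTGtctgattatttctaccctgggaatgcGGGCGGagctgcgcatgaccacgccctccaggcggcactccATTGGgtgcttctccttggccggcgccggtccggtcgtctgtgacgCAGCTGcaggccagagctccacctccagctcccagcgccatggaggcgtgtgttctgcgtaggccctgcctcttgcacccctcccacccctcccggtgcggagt
The Kat2a window held 1 E-box. The Kat2b window held 1 CCAAT box. The Hdac11 window held 1 GC box, 2 E-boxes and 1 CCAAT box. Among 32851 promoter windows of the same length in RefSeq, a GC box was present in 32.7%, an E-box in 66.2%, an E2F site in 1.53% and a CCAAT box in 33.8%. The CG dinucleotide count was 11 for Kat2a, 6 for Kat2b and 17 for Hdac11, beside a median of 6 over all windows. These matches describe the letters and do not show binding.

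Among the erasers, the class I enzymes are the catalytic subunits of nuclear corepressors, Hdac1 and Hdac2 in the Sin3, NuRD and CoREST complexes and Hdac3 with NCoR, while Hdac8 works outside them. Hdac2 had 293 and 241 CPM in WT_Cul libraries, against 103 and 107 CPM in WT_FI libraries. It rose in WT_Cul by a log2 fold change of 1.34 (SE 0.34, adjusted p = 0.0406, edgeR), and its FPKM of 148 and 119.8 in WT_Cul libraries, against 52.8 and 55.3 in WT_FI libraries, was the highest mean of any member in WT_Cul of this table. Hdac3 had 149 and 113 CPM in WT_Cul libraries, against 63.7 and 59.9 CPM in WT_FI libraries, and did not pass (log2 fold change 1.08, 95% interval 0.23 to 1.94, adjusted p = 0.0653, edgeR). Hdac8 had 8.48 and 9.68 CPM in WT_Cul libraries, against 9.68 and 8.76 CPM in WT_FI libraries, with a log2 fold change of -0.02 (95% interval -1.06 to 1.02).

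Hdac1 gave 26.1 and 19.1 CPM in WT_Cul libraries, against 11.4 and 11.1 CPM in WT_FI libraries, and was not called (log2 fold change 1.01, adjusted p = 0.108, edgeR). These levels belong with a split between libraries that crosses the groups. In 6 libraries, all 4 of the table of WT states and index 0 of KO_FI and of WT_FI in the FI table, over 5% of the values above 0 were not whole numbers (tolerance 0.01), and Hdac1 lay between 5.19 and 26.1 CPM. In the other 12 libraries that share was lower and Hdac1 lay between 83.4 and 172 CPM. Mcrs1, a subunit of the NSL complex of Kat8, was split in the same way, at 8.86 to 20.8 CPM in the 6 libraries and 50.5 to 104 CPM in the 12. No other member was separated by this split. RefSeq lists a pseudogene of Hdac1, and the part of shared fragments in this split was not tested.

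**Figure D3:**
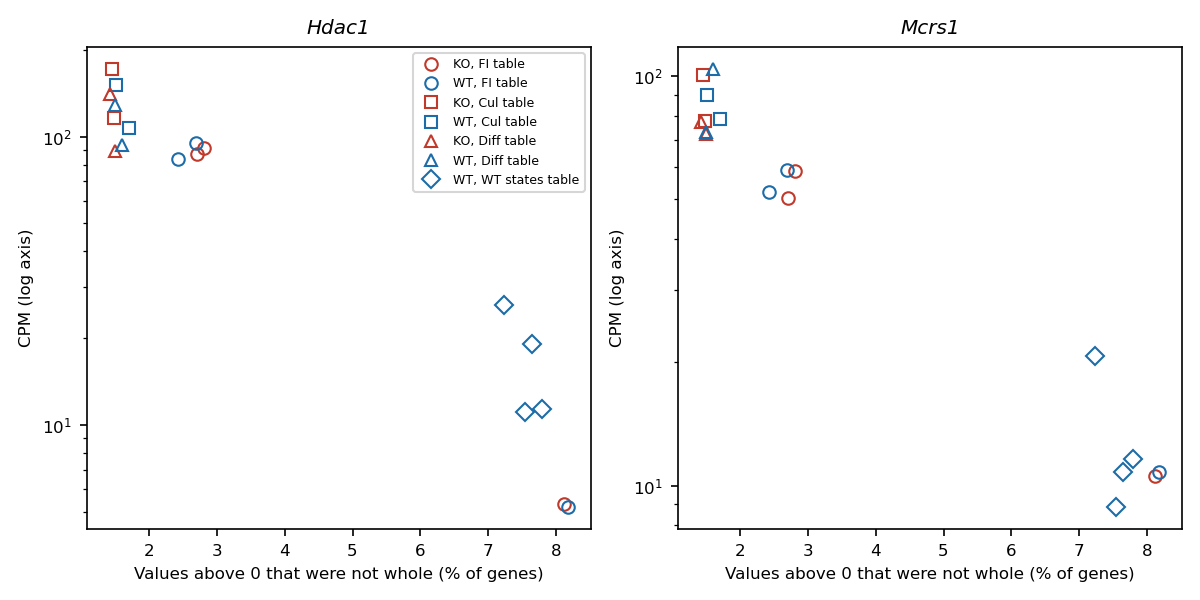
CPM (log axes) of Hdac1 and Mcrs1 in each of 18 libraries, with KO in red and WT in blue, against the percent of a library's values above 0 that were not whole numbers. The 6 libraries at the right, 1 KO_FI, 3 WT_FI and 2 WT_Cul, have 5.19 to 26.1 CPM of Hdac1, and the other 12 have 83.4 to 172. CPM was scaled within each table.

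The class IIa enzymes shuttle between nucleus and cytoplasm on phosphorylation. Hdac5 had 72.4 and 66.1 CPM in WT_Cul libraries, against 157 and 193 CPM in WT_FI libraries. It fell in WT_Cul by 1.34 on the log2 scale (SE 0.34, adjusted p = 0.0391, edgeR). The other 3 class IIa members, Hdac4, Hdac7 and Hdac9, had estimates of -0.60, -0.53 and -1.35 and were not called. Hdac9 had 4.12 and 21.6 CPM in WT_Cul libraries, against 25.3 and 40.5 CPM in WT_FI libraries, and Hdac4 had 2.84 and 24.2 CPM in WT_Cul libraries, against 17.3 and 23.7 CPM in WT_FI libraries. For each of them index 0 of WT_Cul was the low library, and their 95% intervals ran from -3.44 to 0.74 and from -3.04 to 1.84.

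Summed over a class on the FPKM scale, the 4 class IIa enzymes came to 30.3 and 38.5 in WT_Cul libraries, against 67.8 and 79.4 in WT_FI libraries. The 4 class I enzymes came to 242 and 191 FPKM in WT_Cul libraries, against 97.2 and 97.4 FPKM in WT_FI libraries, with Hdac1 low in all 4 libraries beside the other tables. The class IIb enzymes Hdac6, a cytoplasmic tubulin deacetylase, and Hdac10, a polyamine deacetylase, came to 13.2 and 12.2 FPKM in WT_Cul libraries, against 15.1 and 15.9 FPKM in WT_FI libraries. Neither class IIb member was called, at log2 fold changes of 0.04 for Hdac6 and -0.60 for Hdac10. These sums are descriptions without a test.

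Among the other 7 writers none was called. Kat8 (MOF), the enzyme that acetylates lysine 16 of histone H4, had 45.5 and 23.7 CPM in WT_Cul libraries, against 13.6 and 13.7 CPM in WT_FI libraries. Its log2 fold change was 1.34 with a 95% interval of 0.18 to 2.50 (adjusted p = 0.0804, edgeR). Kat8 is short, at percentile 17.8 of length, and its higher library was index 0 of WT_Cul, where short genes in general were high. Kat5 (TIP60), the catalytic subunit of the NuA4 complex, had 64.4 and 42.1 CPM in WT_Cul libraries, against 37.7 and 35.6 CPM in WT_FI libraries, with a log2 fold change of 0.54 (95% interval -0.40 to 1.48). Ep300 had 63.3 and 188 CPM in WT_Cul libraries, against 89.9 and 168 CPM in WT_FI libraries. Its relative Crebbp (CBP) had 9.96 and 98.8 CPM in WT_Cul libraries, against 51.1 and 98.6 CPM in WT_FI libraries. For either gene the spread within a state was wider than the gap between states, and the 95% intervals were -1.65 to 1.57 and -3.07 to 2.15.

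The p160 nuclear receptor coactivators Ncoa1, Ncoa2 and Ncoa3 had log2 fold changes of -0.42, -0.76 and -1.19. None was called in the table of WT states, although the groups did not overlap for any of the 3. Ncoa3 had 37.3 and 80.3 CPM in WT_Cul libraries, against 105 and 163 CPM in WT_FI libraries (adjusted p = 0.133, edgeR). Like Ep300 and Crebbp, these are long transcripts, at or near the 95th percentile of length or above it. Among the 35 members, length percentile and the log2 ratio of index 1 over index 0 had a Spearman rho of 0.78 in WT_Cul and 0.71 in WT_FI of the table of WT states, over members that share the same 2 libraries in each case. Over all genes, deviations were taken on the log2 scale from the mean of all libraries of that table, with both states in the mean. Index 0 of WT_Cul deviated by a median of 0.94 in the shortest of 5 length classes and by -0.71 in the longest. Long members were thus low in that library together with long genes in general.

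Of the subunits of the complexes of Kat8, Wdr5, a WD-repeat protein that also serves histone methyltransferases of the MLL family, had 137 and 154 CPM in WT_Cul libraries, against 50.7 and 48.5 CPM in WT_FI libraries. It rose in WT_Cul by a log2 fold change of 1.55 (SE 0.32, adjusted p = 0.0255, edgeR), the highest estimate in the set. Hcfc1, a host cell factor that the glycosyltransferase Ogt cleaves, had 278 and 526 CPM in WT_Cul libraries, against 158 and 214 CPM in WT_FI libraries, and was not called (log2 fold change 1.11, 95% interval -0.07 to 2.29). Ogt itself had 144 and 257 CPM in WT_Cul libraries, against 294 and 408 CPM in WT_FI libraries, and was not called (log2 fold change -0.81, 95% interval -1.95 to 0.33). Phf20, a Tudor-domain subunit, and Mcrs1 had log2 fold changes of 0.10 and 0.62. The MSL subunits Msl1 (scaffold), Msl2 (a RING ubiquitin ligase) and Msl3 (a chromodomain protein) had log2 fold changes of -0.10, -0.21 and 0.31, none called and the groups overlapping for each.

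No reader was called in the table of WT states. Brd2 and Brd3 are BET proteins whose paired bromodomains bind acetylated histone tails, and the ING proteins bind methylated histone H3 through a PHD finger and sit in deacetylase (Ing1, Ing2) or acetyltransferase complexes (Ing3, Ing4, Ing5). Brd2 had 353 and 519 CPM in WT_Cul libraries, against 415 and 468 CPM in WT_FI libraries, and a log2 fold change of -0.02 with a 95% interval of -1.01 to 0.97. On the FPKM scale it was the most abundant member of WT_FI, at 93.1 and 106, and stood at 78.2 and 112 in WT_Cul. Ing2 had 31.1 and 17.9 CPM in WT_Cul libraries, against 25.2 and 24.7 CPM in WT_FI libraries, with a log2 fold change of -0.03 (95% interval -1.09 to 1.04). The readers' estimates ran from -0.59 for Ing4 to 0.26 for Ing5.

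**Figure D4:**
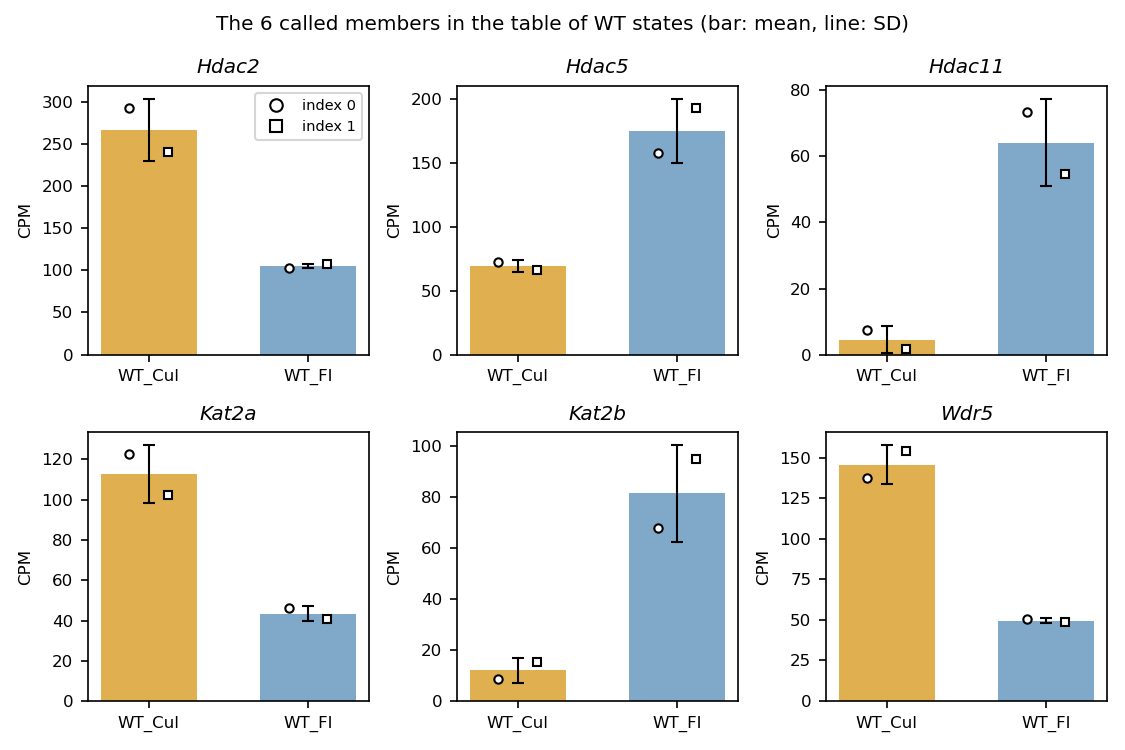
CPM of the 6 called members in the table of WT states, with WT_Cul in the left bar and WT_FI in the right bar of each panel. Bars are means, lines SD of 2 libraries and markers single libraries. Hdac2, Kat2a and Wdr5 are higher in each WT_Cul library, and Hdac5, Hdac11 and Kat2b are lower.

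The estimates of Hdac11 and Kat2b kept their call when any 1 library was left out, but Hdac2, Hdac5, Kat2a and Wdr5 were not called without either WT_FI library (adjusted p 0.227 to 0.377, edgeR), with log2 fold changes of 1.31 and 1.38 for Hdac2, -1.48 and -1.18 for Hdac5, 1.46 and 1.29 for Kat2a and 1.58 and 1.53 for Wdr5. Hdac2 also missed the threshold with limma on log2(FPKM + 1) (adjusted p = 0.0514). In the other WT libraries, 2 WT_Cul of the Cul table against 3 WT_FI of the FI table, all 6 had the same direction and were called, among 60.1% of all genes, from -5.68 for Hdac11 to 1.49 for Wdr5 on the log2 scale. In the KO libraries of those tables all 6 had the same direction and 5 were called, among 62.7% of all genes. Hdac5 was the exception, with a log2 fold change of -0.33 (adjusted p = 0.242, edgeR). Some members not called in the table of WT states were called in both sets, in the direction of their estimate there. Hdac3, Kat8, Msl3 and Hcfc1 were higher in culture, and Hdac4, Hdac9, Hdac10, Ncoa1 and Ing4 were lower. In WT and KO libraries the log2 fold change was -1.22 and -1.72 for Hdac4, -1.80 and -2.13 for Ncoa1 and -1.21 and -1.02 for Ing4. In these fits state and table cannot be told apart.

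Markers of other cells moved with the states. In WT_Cul libraries of the table of WT states, the 8 fibroblast and fibro-adipogenic markers summed to 985 and 1699 CPM, against 28701 and 19827 CPM in WT_FI libraries. The 7 pericyte and smooth muscle markers summed to 2150 and 2189 CPM in WT_Cul libraries, against 22369 and 30810 CPM in WT_FI libraries. Endothelial (39.3 and 80.9 against 378 and 462 CPM), Schwann (332 and 684 against 1982 and 1880 CPM) and macrophage (15.5 and 25.4 against 241 and 193 CPM) sums were also lower in WT_Cul than in WT_FI, with no marker of these 5 lists at 0. The 6 satellite cell markers summed to 1471 and 1182 CPM in WT_Cul libraries, against 1307 and 1133 CPM in WT_FI libraries, and the 6 cell cycle markers to 2294 and 2422 CPM, against 187 and 76.5 CPM. Differentiated muscle markers summed to 2961 and 126 CPM in WT_Cul libraries, against 421 and 175 CPM in WT_FI libraries, so index 0 of WT_Cul was the high library. The part of these cells in the differences of the members was not tested, and in bulk samples fewer cells of a type and less RNA per cell cannot be told apart.

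In the FI table the same fibroblast and pericyte lists summed to 4514 to 6214 and 3330 to 8154 CPM in WT_FI libraries, below the sums in WT_FI of the table of WT states. Hdac11 stood there at 49.5 to 125 CPM and Kat2b at 91.7 to 105 CPM in WT_FI libraries. In WT_FI libraries of the table of WT states, Hdac11 had 73.6 and 54.8 CPM and Kat2b 68.1 and 94.9 CPM. The WT_FI means of Hdac2, Hdac5, Kat2a and Wdr5 were 99.3, 112, 104 and 74.1 CPM in the FI table. They were 105, 175, 43.5 and 49.6 CPM in that of WT states. The satellite cell markers summed to 3084 to 3489 CPM in WT_FI libraries of the FI table, against 1307 and 1133 CPM in that of WT states. Each value is scaled within its own table, and the part of the cell mix was not tested.

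The partners of these enzymes, 97 further genes in 6 lists, were read beside the set. In WT_Cul against WT_FI, 15 of the 96 tested were higher and 1 was lower, beside 12.6% and 16% of all genes, and their median log2 fold change was 0.43. Of the NuA4 (TIP60) list 3 of 13 were higher, the ATPases Ruvbl2 (log2 fold change 3.23, SE 0.42) and Ruvbl1 (2.19, SE 0.43) and the actin-related Actl6a (1.94, SE 0.34). Of 18 SAGA and ATAC subunits 4 were higher, among them Taf10 (3.43, SE 0.82), Supt3 (1.95, SE 0.51) and Taf6l (1.77, SE 0.44). Of 10 other acetyltransferases 1 was higher, Hat1, which acetylates new histone H4 before its deposition (2.54, SE 0.34).

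Of 34 corepressor subunits 5 were higher, among them Sap30 (3.72, SE 0.79) and Brms1 (2.17, SE 0.51) of the Sin3 complex and the histone chaperone Rbbp4 (1.64, SE 0.42). The NuRD remodeller Chd3 was the gene that was lower (-2.15, SE 0.45). Of 18 other bromodomain and YEATS genes 2 were higher, Atad2 (2.78, SE 0.57) and Trim28 (1.70, SE 0.38). None of the 3 remaining NSL subunits was called. Within WT_Cul, Sap30 (58.0 ± 50.3 CPM, SD, n = 2) and Taf10 (31.7 ± 26.9 CPM, SD, n = 2) had a spread nearly as wide as their mean.

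The KO against WT comparisons ask whether loss of the SIRT1 deacetylase domain goes with altered RNA levels of the other writers, erasers and readers. None of the members was called in any state by edgeR (35 tested in FI, 34 in Cul, 35 in Diff), and none had an unadjusted p under 0.05, beside 4.1% of all genes in FI, 0.802% in Cul and 0.186% in Diff. DESeq2 and limma also called no member. The background was 0 in each comparison with edgeR, at 15146, 13963 and 14482 genes tested. DESeq2 called 118, 3 and 0 of all genes. The median log2 fold change of the members was -0.02 in FI, -0.03 in Cul and 0.05 in Diff, beside -0.03, 0.02 and -0.01 over all genes tested.

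**Figure D5:**
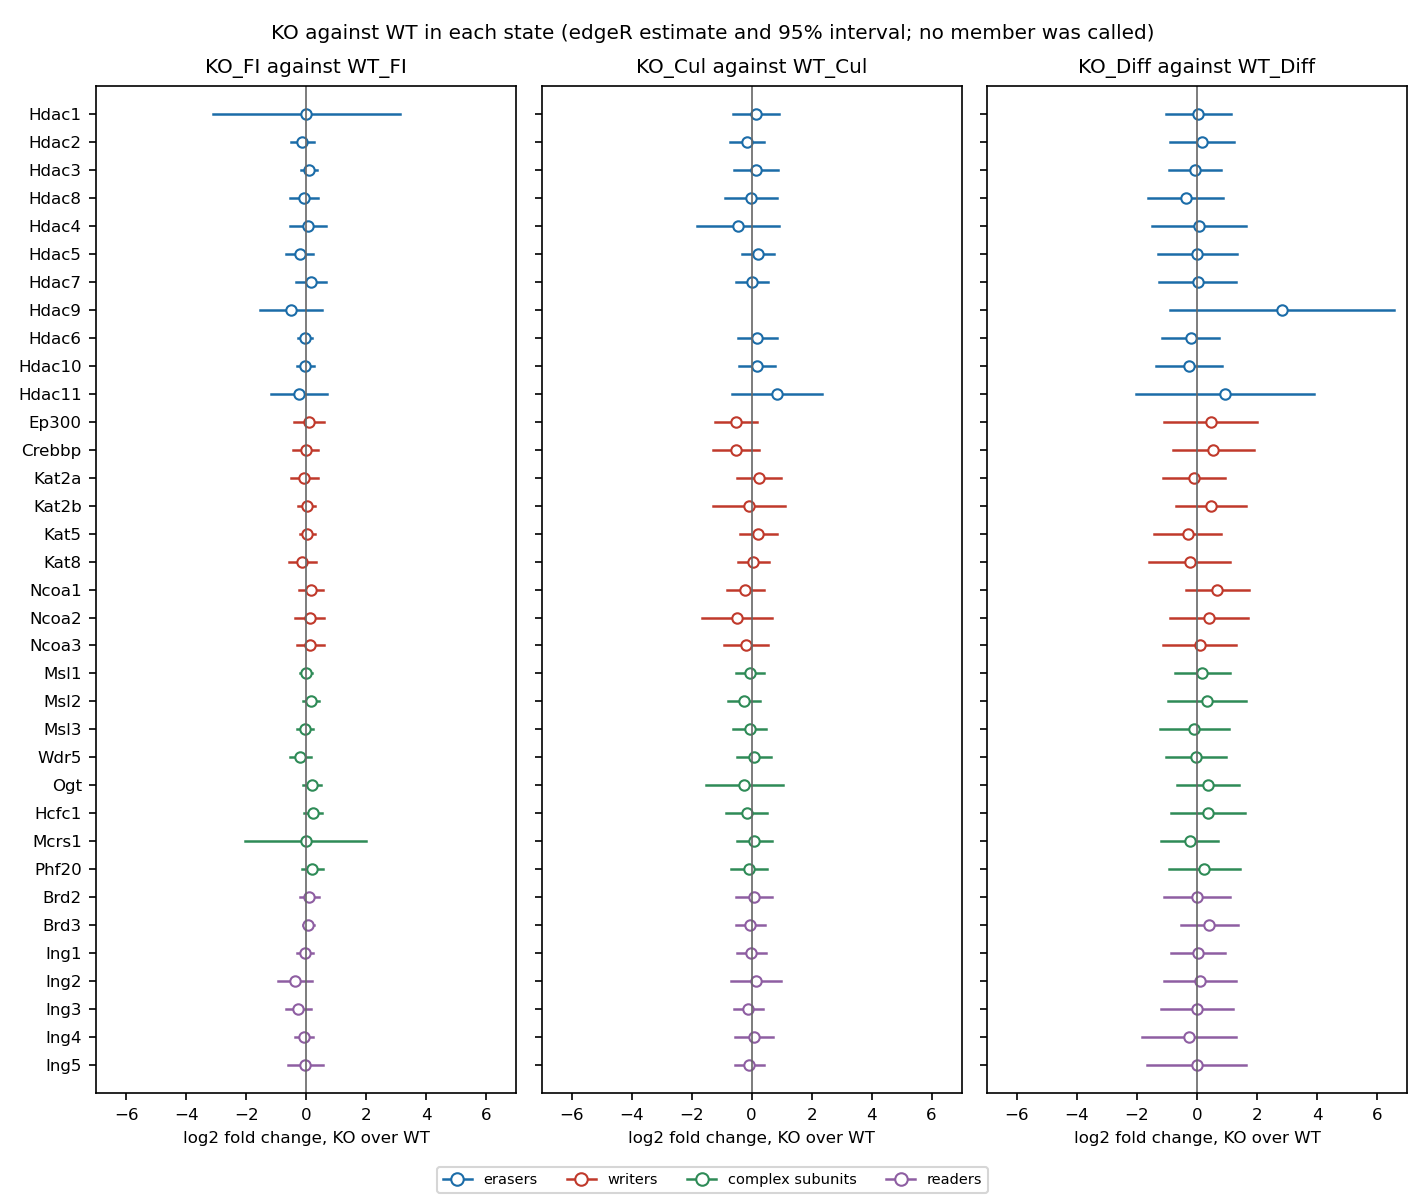
Log2 fold change of KO over WT (x axis) with 95% intervals from edgeR for each member (y axis, coloured by role) in FI (3 against 3 libraries), Cul (2 against 2) and Diff (2 against 2). All points are open because no member was called. Hdac9 is missing in Cul, where its counts were too low to be tested.

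In FI the 4 members with the smallest p were Hcfc1, Ogt, Ing2 and Ing3. Hcfc1 had 291, 283 and 325 CPM in KO_FI libraries, against 282, 233 and 254 CPM in WT_FI libraries. The groups did not overlap, and its log2 fold change was 0.23 (95% interval -0.08 to 0.54, unadjusted p = 0.122, edgeR). Ogt had 334, 361 and 391 CPM in KO_FI libraries, against 340, 305 and 305 CPM in WT_FI libraries (log2 fold change 0.19, 95% interval -0.11 to 0.49). Ing2 had 27.3, 16.6 and 17.5 CPM in KO_FI libraries, against 31.6, 23.1 and 24.8 CPM in WT_FI libraries (log2 fold change -0.37, 95% interval -0.95 to 0.20). Ing3 had 63.1, 46.1 and 43.7 CPM in KO_FI libraries, against 66.5, 63.0 and 53.8 CPM in WT_FI libraries (log2 fold change -0.26, 95% interval -0.68 to 0.16). Ing2 and Ing3 were lower in KO_FI than in WT_FI at each of the 3 indices, and neither was called with the index as a replicate block (adjusted p = 0.504 for Ing2 and 0.607 for Ing3, edgeR). Groups overlapped for the last 3, and did not overlap for 2 of 35 members (Hcfc1 and Brd3), beside 9.22% of all genes.

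Hdac1 and Mcrs1 had the widest intervals in FI, where index 0 of KO_FI and of WT_FI stood apart from the rest for these 2 genes. Hdac1 had 5.32, 91.3 and 86.9 CPM in KO_FI libraries, against 5.19, 95.2 and 83.4 CPM in WT_FI libraries. Mcrs1 had 10.6, 58.8 and 50.5 CPM in KO_FI libraries, against 10.8, 58.9 and 52.0 CPM in WT_FI libraries. No member was called without both libraries of index 0, and 1 gene of all was.

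In Cul the smallest p belonged to Ep300, Crebbp, Hdac11 and Msl2. Ep300 had 64.9 and 97.2 CPM in KO_Cul libraries, against 105 and 127 CPM in WT_Cul libraries. The groups did not overlap, and the log2 fold change was -0.52 (95% interval -1.22 to 0.18, unadjusted p = 0.116, edgeR). Crebbp had 34.9 and 50.8 CPM in KO_Cul libraries, against 50.7 and 72.0 CPM in WT_Cul libraries (log2 fold change -0.52, 95% interval -1.29 to 0.25). Hdac11, at the levels given above, was not called (log2 fold change 0.85, 95% interval -0.64 to 2.35), and Msl2 had 58.3 and 73.6 CPM in KO_Cul libraries, against 76.4 and 80.9 CPM in WT_Cul libraries (log2 fold change -0.25, 95% interval -0.80 to 0.29). Groups did not overlap for 4 of 34 members, beside 23% of all genes. Ep300, Crebbp and Msl2 are long, at percentiles of length of 97.4, 95.2 and 83.2, and Hdac11 is at 43.1. Over all genes, deviations were taken from the mean of all libraries of the Cul table. Index 0 of KO_Cul deviated by a median log2 of 0.16 in the shortest of 5 length classes and -0.24 in the longest. Index 1 of KO_Cul stood at -0.05 and 0.07, and WT_Cul at 0.08 and 0.02 (index 0) and -0.16 and 0.19 (index 1). With a length trend removed per library, chosen after seeing the data, Ep300, Crebbp, Hdac11 and Msl2 kept their direction and none was called. The cause of these estimates was not tested. Hdac9 was at 0.0414 and 0.0478 CPM in KO_Cul libraries, against 0 and 0 in WT_Cul libraries, too low for a test.

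In Diff the smallest p belonged to Hdac9, Ncoa1, Brd3 and Crebbp. Hdac9, whose product binds MEF2, had 0.477 and 8.32 CPM in KO_Diff libraries, against 0.353 and 0.880 CPM in WT_Diff libraries. A single KO_Diff library carried the estimate of 2.83 (95% interval -0.91 to 6.58, unadjusted p = 0.108, edgeR), and without it the estimate was -0.33. Ncoa1 had 103 and 173 CPM in KO_Diff libraries, against 86.2 and 87.1 CPM in WT_Diff libraries (log2 fold change 0.67, 95% interval -0.38 to 1.72). Brd3 (log2 fold change 0.41) and Crebbp (0.54) were also higher in each KO_Diff library than in either WT_Diff library, with 95% intervals of -0.54 to 1.35 and -0.82 to 1.89. Groups did not overlap for 6 of 35 members, beside 13.2% of all genes. Ncoa1, Brd3 and Crebbp are long, at percentiles of length of 94.8, 86.1 and 95.3. Over all genes, deviations were taken from the mean of all libraries of the Diff table. Index 1 of WT_Diff deviated by a median log2 of 0.38 in the shortest of 5 length classes and -0.43 in the longest. Index 0 of WT_Diff stood at -0.18 and 0.20, and KO_Diff at -0.20 and 0.20 (index 0) and 0.02 and 0.05 (index 1). With a length trend removed per library, chosen after seeing the data, Ncoa1, Brd3 and Crebbp kept their direction and none was called. The cause of these estimates was not tested.

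The 2 libraries of each genotype in Diff were unlike. The 6 differentiated muscle markers summed to 303 CPM in index 0 and 20463 CPM in index 1 of KO_Diff, against 145 and 8978 CPM in WT_Diff. The 6 cell cycle markers summed to 3025 and 794 CPM in KO_Diff, against 2897 and 816 CPM in WT_Diff. Hdac11 had 7.95 and 50.4 CPM in KO_Diff libraries, against 4.99 and 25.3 CPM in WT_Diff libraries, so it was higher in index 1 of either genotype. Hdac5 had 110.0 and 145 CPM in KO_Diff libraries, against 77.4 and 174 CPM in WT_Diff libraries. Hdac2 had 168 and 131 CPM in KO_Diff libraries, against 162 and 103 CPM in WT_Diff libraries, lower in index 1. The 8 fibroblast markers summed to 701 and 591 CPM in KO_Diff libraries, against 419 and 286 CPM in WT_Diff libraries, with Lum at 0 in index 1 of each. The 7 pericyte and smooth muscle markers summed to 304 and 3260 CPM in KO_Diff libraries, against 168 and 1605 CPM in WT_Diff libraries. That list was thus higher in index 1 of either genotype, as were the differentiated muscle markers, with Rgs5 at 0 in both WT_Diff libraries. The part of these marker sums in the members' levels was not tested.

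The KO effect itself was compared between states in a joined fit of the FI, Cul and Diff tables. No member and none of the 16698 genes tested had a difference of the KO effect that was called by edgeR for Cul against FI, Diff against FI or Diff against Cul. With TMM or with DESeq2's size factors the count was 0, and 1 member had an unadjusted p under 0.05 in each difference. For Diff against FI this was Hdac9, with a difference of 3.38 in the log2 fold change (SE 1.32, unadjusted p = 0.0281, adjusted p = 1.00, edgeR), which involves the single high KO_Diff library. For Cul against FI it was also Hdac9, and no size is given because its WT_Cul libraries were at 0. For Diff against Cul it was Ncoa1, with a difference of 0.87 in the log2 fold change (SE 0.38, unadjusted p = 0.0438, adjusted p = 1.00, edgeR).

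Of the 97 partner genes, 96 were tested in each KO comparison and none was called by edgeR. Their median log2 fold change was 0.03 in FI, -0.004 in Cul and 0.07 in Diff.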

How the data were processed

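PolyA RNA-seq was analysed in 18 libraries, and the 10 ChIP and input samples were not used here. The deposited tables hold estimated counts (raw fragments per gene) and FPKM values scaled by the authors within each table, in Cuffdiff's format, per the file headers. Bowtie, TopHat, Cuffdiff, SICER and mm9 are named in the submitters' processing notes, without roles; no source used here gives a version. No sample column was left out (0). Genes without an OK status throughout a table were dropped from it (22 in FI, 12 in Cul, 19 in Diff, 27 in WT states). The letter of the proliferating state in the tables was matched to Cul because every other condition was accounted for.

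Estimated counts were rounded and fitted per table with edgeR 4.0.16 (R 4.3.3; glmQLFit robust, TMM, filterByExpr), tested on simulated data. DESeq2 1.42.0, limma 3.58.1 on log2(FPKM + 1), other filters and scalings, a replicate block and leaving out libraries were alternatives, and gene length was read from the fragments per FPKM. In FI, libraries with the same index deviated together (correlations 0.866, 0.685 and 0.582). KO_FI index 2 with WT_FI index 1 was nearly as high (0.536), and KO_FI index 1 with WT_FI index 2 had 0.345. Pairing of indices 1 and 2 is thus not shown, and the block changed no member's call in FI. Counting is not stated to use strand, so near-identical or overlapping genes are uncertain. Named were members called in WT_Cul against WT_FI, the 3 nearest to no change, the 4 smallest p in each KO comparison and the 3 largest called partners per direction and list, with other members added after their values were seen. Members and lists were chosen with earlier results of these data known. Promoter sequences are RefSeq's (30 of 35 members matched).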

Additional observations from a re-analysis of the deposited data

How the results depend on the processing

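In WT_Cul against WT_FI, 6 members were also called with DESeq2's size factors (among 4193 of all genes) and with no filter on low counts (4511), 8 by DESeq2 (5763, adding Hdac3 and Kat8) and 5 by limma (4238). Whether the table index pairs the libraries there cannot be judged, as only 2 pairs exist (correlation 0.391). With the index as a replicate block 11 members were called. With a length trend removed per library, chosen after seeing the data, the count was 12, and 11 with that and the replicate block together (6659). It was 15 in the other WT libraries (9421) and 20 in the KO libraries (9959), where state and table coincide, and 2 to 15 when 1 library was left out (2 without either WT_FI library, 15 without index 1 of WT_Cul). Over all genes the count was 6176 with the block, against 4200 without it, 6514 with the length trend removed, and 2063 to 8050 with 1 library left out.

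Among members near no change, the direction turned for Brd2 (-0.34 to 0.19 with 1 library left out, above 0 in 2 of 4 such fits, 0.32 with the length trend removed, with or without the replicate block), for Hdac8 (-0.13 to 0.048 with 1 left out, above 0 in 2 of 4, 0.096 in the other WT libraries, 0.18 in the KO libraries) and for Ing2 (-0.52 to 0.31 with 1 left out, above 0 without index 1 of WT_Cul, 0.014 with the length trend removed, 0.49 in the KO libraries). Hdac9 in KO_Diff against WT_Diff ran from -0.33 without index 1 of KO_Diff to 3.75 without index 0 of KO_Diff. The cause was not tested.

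In the KO comparisons the count of members called was 0 under every alternative run, the replicate block included. Over all genes the block gave 3 calls in Cul and 147 in Diff, and 0 in FI (same-index correlations 0.756 in Cul and 0.795 in Diff, 2 pairs each). Counts were too low to test Hdac9 in Cul, and each comparison rests on 2 or 3 libraries a group.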

Other observations

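WT_FI libraries occur in the FI table and in the table of WT states, and several members stood at different levels in them, although CPM is scaled within each table and no test was made. Ncoa1 had 411, 301 and 333 CPM in WT_FI libraries of the FI table, and 118 and 139 CPM in WT_FI libraries of the table of WT states. Hdac4 had 81.7, 42.9 and 53.9 CPM in the FI table, and 17.3 and 23.7 CPM in that of WT states. Hdac9 was lower in the FI table, at 6.30, 4.39 and 10.8 CPM, than in that of WT states, at 25.3 and 40.5 CPM. Kat2a had 94.0, 133 and 85.6 CPM in the FI table, and 46.1 and 40.8 CPM in that of WT states, while Kat2b had 92.6, 91.7 and 105 CPM, and 68.1 and 94.9 CPM.

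In the FI table, 303 of 11751 genes, or 2.58%, were at least 4-fold lower in both libraries of index 0 than in all others, and the 2 members among them were Hdac1 and Mcrs1.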
